A study of Mus musculus with 28 samples.

Results

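Keratin genes were defined as the GRCm38 protein-coding genes on chromosomes 11 and 15 whose symbol is Krt followed only by digits, which gave 49 of 21887 genes over the autosomes and sex chromosomes. Of these, 25 lay on chromosome 11 and 24 on chromosome 15. They were read against a single list of intervals of H3K27ac, the acetylation of lysine 27 of histone H3 that is found at promoters and enhancers in use, measured by chromatin immunoprecipitation sequencing. The cells were cranial neural crest of E10.5 mice with the genotype label WT (wild type), collected by fluorescence-activated sorting. Reads of 4 libraries, 1 from each of FNP, Mx, Md and PA2 as the labels name the populations, were merged by the authors before intervals were called. There are therefore no replicates, no interval carries a population, and no difference below could be tested. The marker or allele used to sort the cells is not given in the sources used here.

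Keratins are the intermediate filament proteins of epithelial cells. A filament is built from pairs of an acidic type I and a basic type II keratin, and each kind of epithelium uses its own pairs. Mouse type I genes lie in a cluster on chromosome 11 and type II genes in a cluster on chromosome 15, with the type I gene Krt18 beside its partner Krt8 at the edge of the type II cluster. Simple, single-layered epithelia use Krt8 and Krt18 with Krt7, Krt19 or Krt20, and stratified epithelia, hair and nail use the others. Neural crest cells of the face are mesenchymal and lie beneath the surface epithelium, where keratins are made.

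H3K27ac was sparse at the keratin genes and, where found, mostly weak. An interval overlapped the 1 kb on either side of an annotated gene end in 14 of 49 keratin genes (28.6%), against 65.0% of all protein-coding genes. Such genes are called marked below. Of the simple-epithelium keratins, Krt8, Krt18, Krt19 and Krt20 were marked and Krt7 was not (4 of 5), while the other keratins had 10 of 44 (22.7%). With 5 genes in 1 list, this is a description, and the order against all genes turns with the window: within 500 bp of an end it was 2 of 5, against 61.5% of all genes. Scores did not follow the same order. The best scores of the 4 marked simple-epithelium genes had a median of 180.5 and ran from 130 to 234. Those of the 10 other marked keratins had a similar median of 203.5 and ran from 82 to 3341. The highest keratin scores were those of Krt10 and Krt1, at 3341 and 1663. The score is the authors' deposited value per interval, which the caller by convention sets to 10 times −log10 of the q-value. The lowest score in the list was 31 and the median 111.

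The promoters that carry these observations are shown first, from RefSeq (GRCm38.p6), which listed a promoter for 35 of the 49 members. Each window runs from 250 bases before to 50 bases after the listed transcription start, on the strand of the gene and 5′ to 3′, and capitals mark the bases that lie inside an H3K27ac interval. Krt18, Krt20 and Krt75 are shown because theirs are the keratin windows that an interval overlapped. Krt8 is shown as the partner of Krt18, and no interval reached its window. Positions are chr15:102027966-102028265 on the plus strand for Krt18, and on the minus strand chr15:102004293-102004592 for Krt8, chr11:99438104-99438403 for Krt20 and chr15:101573855-101574154 for Krt75.
Krt18: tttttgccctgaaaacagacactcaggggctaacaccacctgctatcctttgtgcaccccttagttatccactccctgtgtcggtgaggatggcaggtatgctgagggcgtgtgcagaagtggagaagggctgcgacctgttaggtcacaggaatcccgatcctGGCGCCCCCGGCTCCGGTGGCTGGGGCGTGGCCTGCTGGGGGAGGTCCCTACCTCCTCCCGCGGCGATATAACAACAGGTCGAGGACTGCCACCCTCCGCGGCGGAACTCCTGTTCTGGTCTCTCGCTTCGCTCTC
Krt8: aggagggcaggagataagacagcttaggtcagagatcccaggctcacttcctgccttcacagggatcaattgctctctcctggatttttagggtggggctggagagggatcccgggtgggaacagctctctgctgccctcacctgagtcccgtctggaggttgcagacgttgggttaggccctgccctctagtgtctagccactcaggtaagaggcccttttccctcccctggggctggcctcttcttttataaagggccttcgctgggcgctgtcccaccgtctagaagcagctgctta
Krt20: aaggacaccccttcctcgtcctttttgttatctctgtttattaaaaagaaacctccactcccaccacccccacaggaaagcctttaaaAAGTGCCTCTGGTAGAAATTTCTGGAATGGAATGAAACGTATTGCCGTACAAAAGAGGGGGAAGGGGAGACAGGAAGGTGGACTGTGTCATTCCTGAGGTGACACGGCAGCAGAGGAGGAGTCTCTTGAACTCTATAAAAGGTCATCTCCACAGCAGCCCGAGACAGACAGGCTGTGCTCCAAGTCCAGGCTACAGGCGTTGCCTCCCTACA
Krt75: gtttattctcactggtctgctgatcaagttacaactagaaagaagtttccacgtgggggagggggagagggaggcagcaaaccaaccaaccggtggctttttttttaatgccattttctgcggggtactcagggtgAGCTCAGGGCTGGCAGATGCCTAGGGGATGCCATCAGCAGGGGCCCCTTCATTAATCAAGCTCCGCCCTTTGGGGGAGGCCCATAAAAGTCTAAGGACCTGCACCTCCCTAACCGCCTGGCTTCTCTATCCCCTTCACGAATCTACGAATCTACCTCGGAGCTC

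In Krt18, 136 of the 300 bases were inside the interval, from the proximal promoter through the start. The share was larger in Krt20, with 212 bases, and in Krt75, with 164 bases. Krt8 had none. The letters of the 4 windows differ in kind. The Krt18 window holds 17 CpG dinucleotides and no TATAAA, whereas the Krt20 window holds 6 CpG dinucleotides and a TATAAA that begins 29 bases before the start.

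Krt8 and Krt18 encode the first keratin pair of the embryo and of simple epithelia in general. The Krt18 gene (chromosome 15, 102028216 to 102032026, plus strand) had 1 interval, which covered its listed start (102028130 to 102028490, 361 bp wide) and had a score of 207. The Krt8 gene (chromosome 15, 101996711 to 102004342, minus strand) had 2 intervals within 1 kb of its ends. One lay inside the gene, 821 bp downstream of the listed start (102002834 to 102003521), with a score of 234. The other lay 714 bp beyond the 3′ end (101995368 to 101995997), with a score of 190, and also falls within the annotated extent of Krt78. Both genes were thus marked near the start at similar scores, at percentiles 71.3 and 73.6 of all intervals on chromosomes. Among marked genes, however, the best gene-end scores of Krt18 and Krt8 stood at percentiles 12.4 and 13.4.

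Further intervals lay around this pair. The 23.9 kb between Krt8 and Krt18 held 5 intervals, with scores from 57 to 294. The one with a score of 294 lay 2.27 kb upstream of the Krt18 start, and a run of 4 lay 9.65 to 11.4 kb upstream, of which 2 overlapped a non-coding gene of the annotation and 2, with scores of 265 and 110, overlapped no annotated gene. Stronger intervals lay farther out. On the far side of Krt8, intervals with scores of 1520 and 1492 lay 19.9 and 26.3 kb from its start, and beyond Krt18 one with a score of 1327 lay 23.9 kb from its start. These scores stand at percentiles 90.1 to 90.9 of all intervals. The genes on which such distal intervals act cannot be read from the list. From the lower end of Krt78 to the end of Krt18, 86.0 kb held 14 of the 32 intervals of the chromosome 15 cluster.

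**Figure D1:**
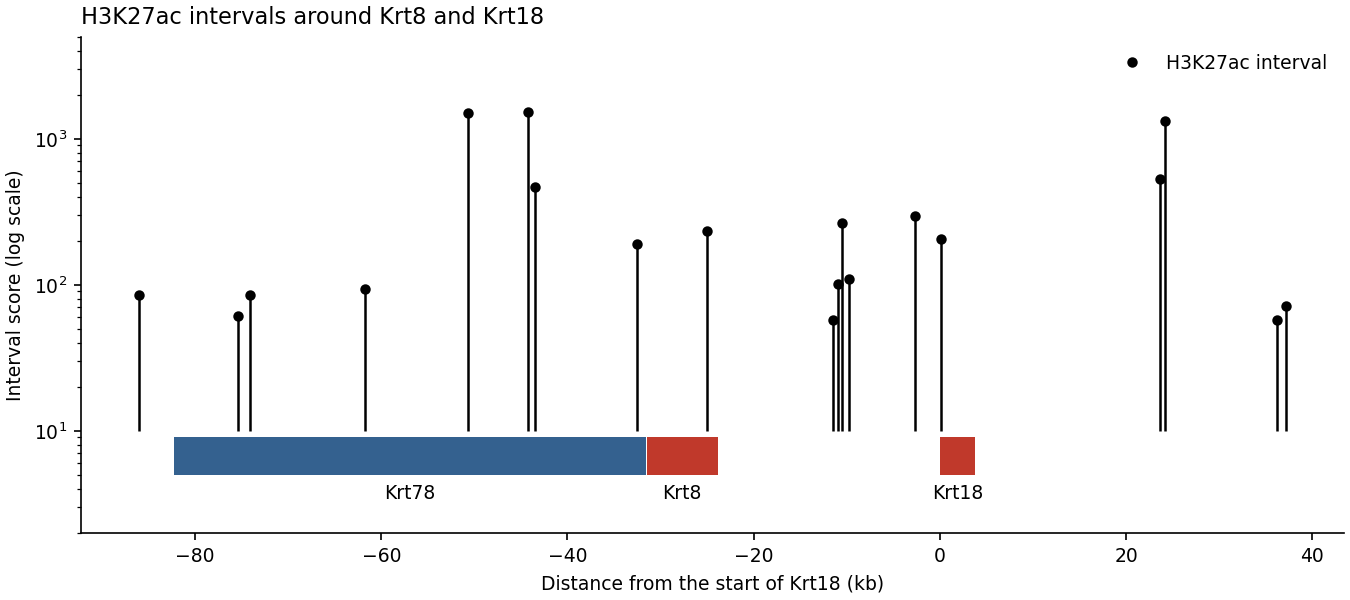
H3K27ac intervals around Krt8 and Krt18. Each point is an interval, placed by its distance from the start of Krt18 in kb and its deposited score on a log axis, and bars are annotated genes. The interval over the Krt18 start scores 207, and the one 821 bp downstream of the Krt8 start scores 234. Both are below the intervals of 1492 and 1520 over the annotated extent of Krt78 and the one of 1327 beyond Krt18.

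The remaining simple-epithelium keratins had 1 interval each. Krt20, a keratin of gut and urothelium, was marked at its start (chromosome 11, 99437811 to 99438315) with a score of 154. Krt19, a type I keratin without the usual tail, had no interval in the gene. Its interval ended 955 bp below the lower end of the gene (chromosome 11, 100139579 to 100139855), so it was only just inside the 1 kb window, with a score of 130. Krt7, a type II keratin of ducts and glands, had no interval at an end, and its 1 interval lay 2808 bp downstream of the start with a score of 73. The 5 genes are alike in having an interval in the gene or within 1 kb of it (5 of 5), against 14 of 44 other keratins (31.8%) and 74.4% of all protein-coding genes. The best gene-end scores of the 4 marked genes lay below 704.5, the lower quartile of such scores over the 14235 marked genes. Krt7 has no gene-end score to compare.

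The keratins of stratified epithelium were mostly unmarked. Krt5, Krt14 and Krt15, the keratins of the dividing basal layer, had 0 of 3 marked, against 65.0% of all protein-coding genes. They had no interval in the gene either. Their nearest intervals lay 59.6 kb from Krt5, 34.0 kb from Krt14 and 3.63 kb from Krt15. Krt5 and Krt14 form the basal pair, and each was far from any interval.

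Among 12 keratins of suprabasal and mucosal layers, 5 were marked (41.7%), below the 65.0% of all protein-coding genes. The 2 highest keratin scores were here. Krt10, the type I keratin of differentiating epidermis, had an interval of 1462 bp with a score of 3341 (chromosome 11, 99385481 to 99386942). Krt1, its type II partner, had an interval of 702 bp with a score of 1663 (chromosome 15, 101845799 to 101846500). Both lay away from the upper end of their gene. The Krt10 interval lay 2422 bp downstream of the listed start and 227 bp from the lower end of the gene, which on the minus strand is the 3′ end. The Krt1 interval lay 373 bp from the lower end of its gene and 4286 bp from the upper end, and the promoter table used here does not list Krt1. Repeated sequence and the unique placement of reads could not be checked at these 2 intervals, and no control is named for the calling, so what their high scores measure is uncertain. Krt77, a type II keratin related to Krt1, also carried its interval on the 3′ side, 957 bp inside the 3′ end and 9470 bp from the listed start, with a score of 224. Krt79 had 2 weak intervals at its 3′ end, with scores of 84 and 54.

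Krt78 was the longest of the keratin genes as annotated, at 50.6 kb, and held 7 intervals. Its promoter is listed inside that extent, 8.29 kb from the lower end, and 5 of the 7 intervals lay upstream of this start, on the side of Krt8. They include those of 1492, 1520 and 190 named above, so the marked end of Krt78 rests on an interval that Krt8 shares. Within 1 kb of the listed start lay 1 interval, 79 bp downstream, with a score of 85. Krt2, Krt4, Krt9, Krt12, Krt13, Krt24 and Krt76 of the same class had no interval within 1 kb of the gene.

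Keratins of stressed skin, nail and appendages had 1 of 4 marked, against 65.0% of all protein-coding genes. Krt75, a type II keratin of the hair follicle's companion layer, had an interval over its start (chromosome 15, 101573474 to 101574018) with a score of 263, the third highest of the marked keratins, and a second of 68 near its 3′ end. Krt17, which is made in embryonic periderm and in injured skin, had none, and the nearest lay 12.8 kb away. Krt16 and Krt42 had none within 1 kb.

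Inner root sheath keratins, which form the sheath around the growing hair, had 0 of 7 marked, against 65.0% of all protein-coding genes. This holds for type I genes on chromosome 11 (Krt25, Krt26, Krt27 and Krt28) and type II genes on chromosome 15 (Krt71, Krt72 and Krt73). Hair shaft keratins had 2 of 13 marked (15.4%), also below that share, namely Krt87 at its upper end with a score of 175 and Krt86 with 82. Krt40 and Krt82 had an interval inside the gene only, with scores of 137 and 49. The hair keratin genes Krt81, Krt83, Krt86 and Krt87 are close copies of each other, and how reads that match several copies were placed is not given in the sources used here, so a score at one of them is uncertain. Of the 5 members outside these classes, Krt222 was marked over its upper end (score 217) and Krt23 172 bp downstream of its start (score 97). Krt80 had 3 intervals inside the gene, with scores from 59 to 110, Krt90 had 1 with a score of 73, and Krt88 had none.

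**Figure D2:**
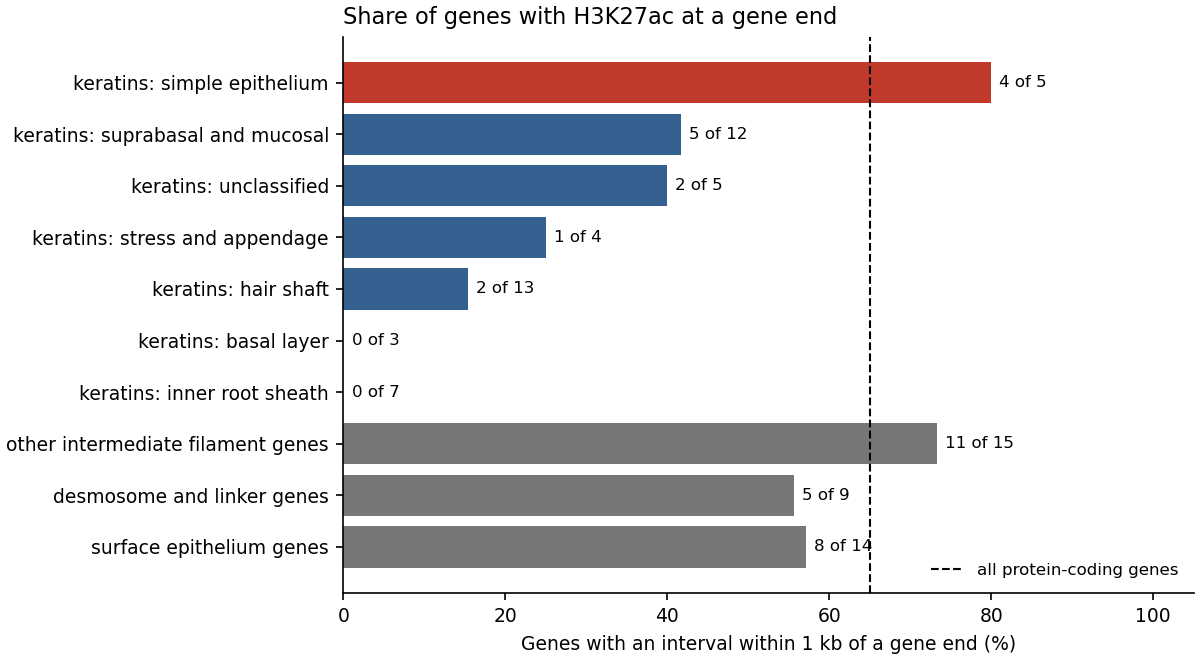
Percent of genes with an H3K27ac interval within 1 kb of a gene end, by keratin class and in 3 comparison lists, with counts beside the bars. The dashed line is the share of all protein-coding genes, 65.0%, and simple-epithelium keratins (4 of 5) are the only keratin class above it at this window, while with windows of 500 bp they have 2 of 5, below the 61.5% of all genes.

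Over all members, an interval overlapped the gene itself in 18 of 49 (36.7%), against 73.1% of all protein-coding genes. Keratin genes are short, with a median length of 7.42 kb against 17.2 kb. Genes of like length were nearer to the share of all genes. Of the 2522 other genes with lengths between the quartiles of the members, 5.36 to 9.77 kb, 67.5% had an interval in the gene and 63.8% at an end. An interval lay in or within 1 kb of 19 of 49 members (38.8%), against 74.4% of all protein-coding genes. No interval lay in or within 1 kb of the other 30 members. Their nearest interval lay between 2.65 kb (Krt16) and 93.0 kb (Krt34) away, with a median of 16.9 kb. A nearest interval more than 10 kb away was found for 22 of 49 keratin genes (44.9%), against 19.7% of all genes.

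The scores of marked keratins were low for marked genes. Over the 14 marked members, the best gene-end score had a median of 198.5 and ran from 82 (Krt86) to 3341 (Krt10). Over all 14235 marked genes the median was 2494, with quartiles of 704.5 and 4793.5. Only Krt10 lay above the median of all marked genes, and 12 of the 14 lay below the lower quartile. With scores of at least 100, 11 of 49 keratin genes were marked, against 61.2% of all genes. Share and score also depend on how an interval is counted. Windows of 500 bp gave 10 of 49 (61.5% of all genes) and of 2.5 kb gave 16 of 49 (70.8% of all genes). When the gene-end base had to lie in an interval, 5 of 49 were marked, against 32.6% of all genes. With at least 50% of the interval inside the 1 kb window, 11 of 49 were marked (63.2% of all genes). The higher-scored 50% of intervals marked 11 of 49 as well (60.5% of all genes). Inside the gene, 12 of 49 had an interval with a score of at least 100 (68.8% of all genes), 11 had one of the higher-scored 50% (68.0% of all genes), and 18 had one with at least 50% of its width in the gene (71.0% of all genes). The keratin share was below that of all genes in each of these settings. Simple-epithelium keratins gave 2 of 5 with windows of 500 bp, where the intervals of Krt8 and Krt19 fall outside, and the others 8 of 44 (18.2%). With at least 50% of the interval inside the 1 kb window, simple-epithelium keratins again gave 2 of 5, below the share of all genes. Over the gene-end base they also gave 2 of 5, above the 32.6% of all genes. They gave 4 of 5 with scores of at least 100, with the higher-scored 50% of intervals and with windows of 2.5 kb. In each of these last settings they were above the share of all genes.

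In a merged sample, a low score can come from a weak mark in many cells or a mark in few cells, and these cannot be told apart.

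**Figure D3:**
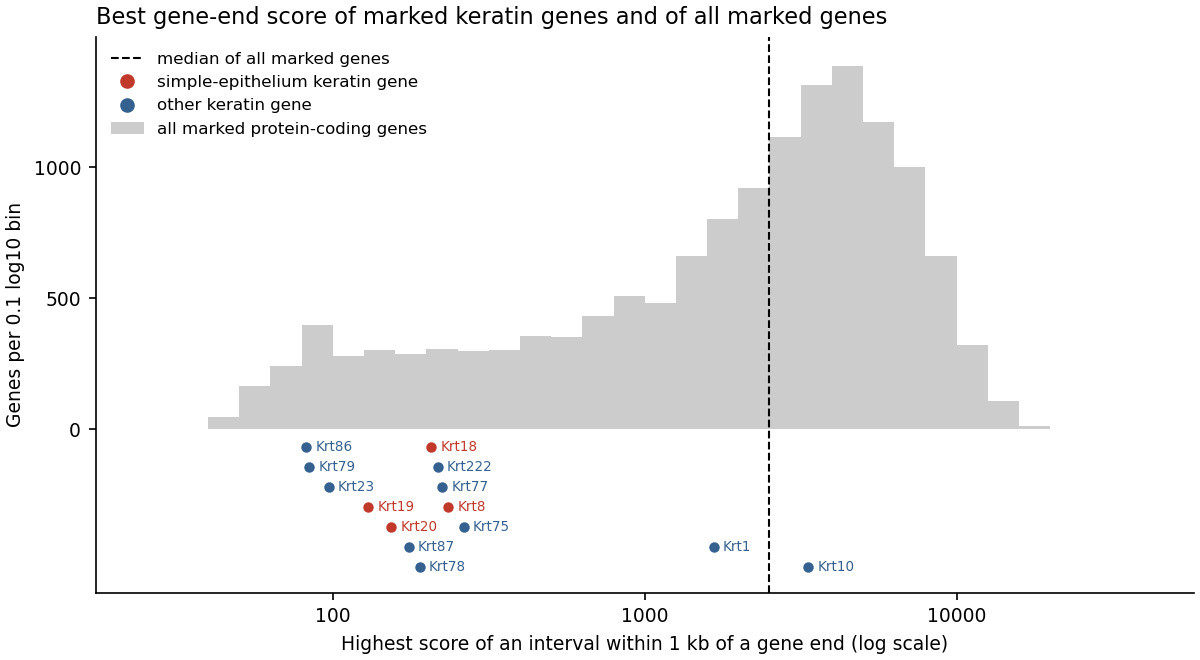
Highest score of an interval within 1 kb of a gene end, on a log axis. Grey bars count all 14235 marked protein-coding genes, the dashed line is their median of 2494, and points below the axis are the 14 marked keratin genes, of which 12 lie between 82 and 263.

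Position within the gene could be read for the 9 marked members with a listed promoter. The interval was at the annotated 5′ end alone in 4 of them (Krt18, Krt20, Krt23 and Krt78), at the 3′ end alone in 3 (Krt10, Krt77 and Krt79) and at both in 2 (Krt8 and Krt75). Counting only the 1 kb around listed starts, 6 of 35 members were marked (17.1%), against 65.5% of the 17492 protein-coding genes with a listed start. These were Krt8, Krt18, Krt20, Krt23, Krt75 and Krt78. Simple-epithelium keratins gave 3 of 4 and the others 3 of 31 (9.68%). Both of the strongest keratin intervals, at Krt10 and Krt1, thus leave the count when the start is asked for, Krt10 by its position and Krt1 for lack of an entry.

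Keratin promoters share letters that the choice of members did not use. The 36 listed windows of the 35 members (Krt13 has 2) held a median of 5 CpG dinucleotides (range 2 to 21), against 13 over 21263 windows of protein-coding genes. Their median G and C content was 48.8%, against 56.3%. The motif TATAAA, on either strand, was in 18 of 36 keratin windows (50.0%) and in 12.6% of all windows. It began 20 to 40 bases before the start, where TATA boxes lie, in 13 keratin windows (36.1%), against 2.53% of all. GGGCGG, the core of the GC box, on either strand, was in 2 keratin windows (5.56%), those of Krt7 and Krt75, against 46.2% of all. GCCNNNGGC, the palindrome bound by AP-2 factors, was in 7 (19.4%), Krt18 and Krt7 among them, against 19.9%. TGANTCA, the AP-1 site, was in 2 (5.56%), both of Krt13, against 6.99%. Motifs were counted separately, so matches of different motifs can overlap. These matches are descriptions of letters, and neighbouring keratins arose by duplication, so the windows are not independent.

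CpG number moved with H3K27ac over all genes. Intervals overlapped 7.92% of the 6035 windows with 0 to 4 CpG dinucleotides and 92.9% of the 7641 with 20 or more. Of keratin windows, 16 had 0 to 4 and 0 of these were overlapped. Another 16 had 5 to 9, and 2 were overlapped (Krt20 and Krt75), against 37.0% of all windows in that range. Krt18 was the keratin with 15 to 19 CpG dinucleotides and was overlapped, as were 85.4% of all such windows. Krt7, with 21 CpG dinucleotides and 4 copies of GGGCGG, had the most CpG-rich window of the listed keratins and was not overlapped. The part of base composition in the low share of marked keratins was not tested.

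**Figure D4:**
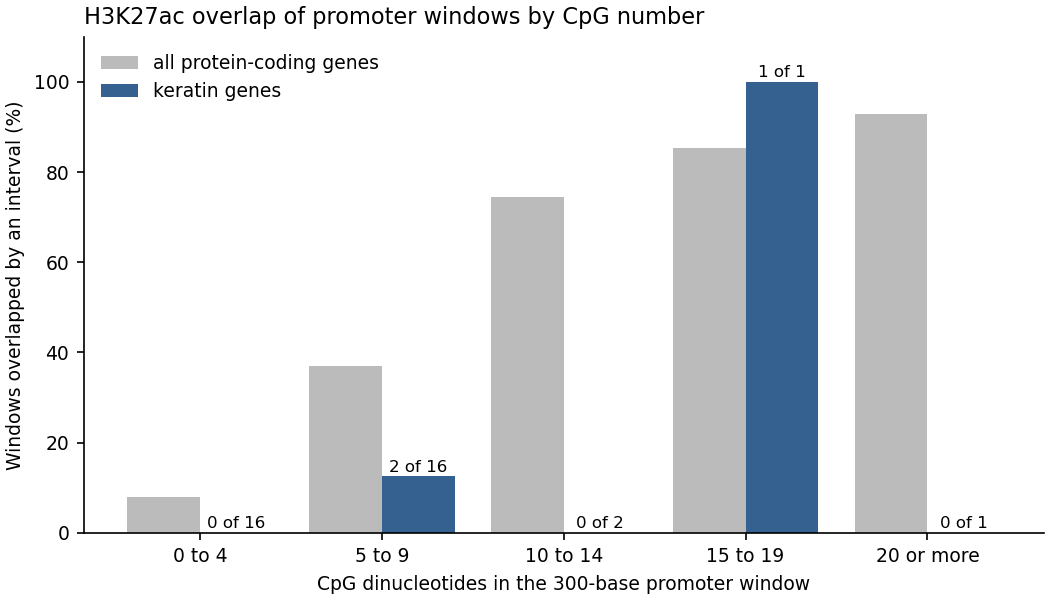
Percent of 300-base promoter windows overlapped by an H3K27ac interval, by the number of CpG dinucleotides in the window. Grey bars are all protein-coding genes and blue bars keratin genes, with counts of keratin windows above; of 36 keratin windows, 32 have fewer than 10 CpG dinucleotides and 3 in all are overlapped.

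The clusters differed as wholes. The chromosome 11 cluster, from Krt222 to Krt42 (99232761 to 100269951, 1037.2 kb), held 20 intervals, or 19.3 per Mb, against 67.8 per Mb over that chromosome. The chromosome 15 cluster, from Krt80 to Krt18 (101348315 to 102032026, 683.7 kb), held 32 intervals, or 46.8 per Mb, against 48.9 per Mb. The chromosome 11 cluster thus had 0.285 times the density of its chromosome and the chromosome 15 cluster 0.957 times. These densities are of whole spans. The chromosome 11 span includes 302 kb with no interval and no keratin gene. On chromosome 15, 14 of the 32 intervals lay in the 86 kb from Krt78 to Krt18. Densities over only the stretches that hold keratin genes were not compared. In consecutive windows of the same length along each chromosome, the median was 72 intervals on chromosome 11, where 15 of 114 windows held 20 or fewer. On chromosome 15 the median was 34, and 70 of 147 windows held 32 or fewer. Intervals covered 0.663% of the chromosome 11 cluster (2.76% of the chromosome) and 1.78% of the chromosome 15 cluster (1.87% of the chromosome).

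Where the intervals lay within the clusters differed too. On chromosome 15, 22 of 32 overlapped a keratin gene, 1 more lay within 1 kb and 9 lay elsewhere. Of these 22, 7 lay in the 50.6 kb annotated extent of Krt78. On chromosome 11 the order was the other way, with 5, 1 and 14 of 20. That cluster is longer, 1037.2 against 683.7 kb, for 25 and 24 keratin genes with median lengths of 6.49 and 8.42 kb. Keratin genes thus fill less of the chromosome 11 cluster, and the counts were not set against the share they fill. Scores were alike in the middle, with medians of 107.5 on chromosome 11 and 110 on chromosome 15, against 120 and 107 over the chromosomes. Scores of 1000 or more were reached by 1 interval on chromosome 11 (at Krt10) and by 3 on chromosome 15 (1 at Krt1 and 2 over Krt78). By gene, 5 of 25 keratins on chromosome 11 and 9 of 24 on chromosome 15 were marked, against 65.0% of all protein-coding genes.

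Long stretches of both clusters held no interval. On chromosome 15 the longest ran 177 kb (101595021 to 101772462) over Krt5 and Krt71. On chromosome 11 the longest ran 302 kb (99641651 to 99944083) and held no keratin gene. The next, of 195 kb (99944354 to 100139578), held 7 keratin genes, namely Krt34, Krt31, Krt32, Krt35, Krt36, Krt13 and Krt15, and ended at the interval beside Krt19. A stretch of 74.1 kb held Krt9 and Krt14.

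**Figure D5:**
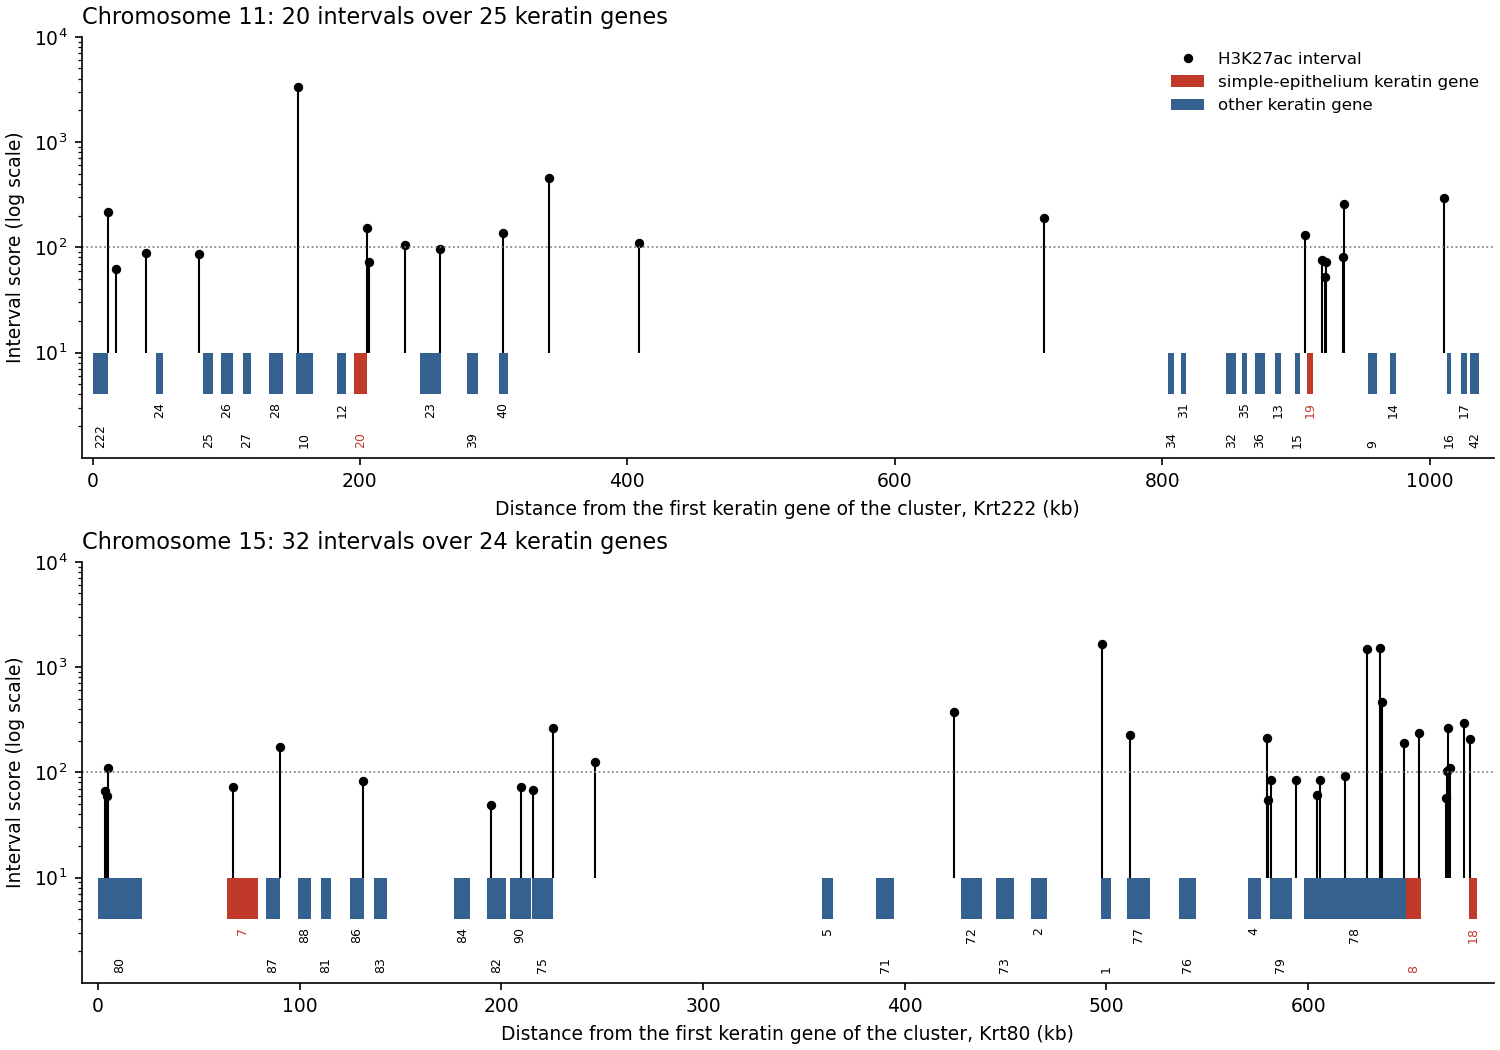
H3K27ac intervals over the keratin clusters of chromosomes 11 and 15. Each point is an interval, placed by its distance in kb from the first keratin gene of its cluster and its score on a log axis (dotted line at 100), and boxes are keratin genes with the number of their symbol. Of the 32 intervals of chromosome 15, 14 lie from Krt78 to Krt18, and the 20 of chromosome 11 leave 302 and 195 kb empty in the middle.

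The 5 nearest genes on either side of each cluster were marked in 19 of 20, against 65.0% of all protein-coding genes. These neighbours lay from 1.74 kb (Smarce1) to 209 kb (Top2a) away. Best scores ran from 58 (Tns2) to 14968, with a median of 3153. On chromosome 11, Smarce1, a subunit gene of the BAF chromatin remodelling complex, ended 1.74 kb before Krt222 and had a best gene-end score of 9944. Eif1, a translation initiation factor gene, lay 50.0 kb beyond Krt42 and had 8310. On chromosome 15, Atg101, an autophagy gene, had 14968 at 57.4 kb before Krt80, and Eif4b, another initiation factor gene, had 10238 at 41.7 kb beyond Krt18. Ccr7, a chemokine receptor gene 77.7 kb before Krt222, was the one without an interval at an end. The 500 kb below and above the chromosome 11 cluster held 95 and 43 intervals, and those around the chromosome 15 cluster 64 and 69.

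Of 15 intermediate filament genes outside the keratin family, 11 were marked (73.3%), near the 65.0% of all protein-coding genes. Their median best score was 376, against 2494 over all marked genes. The highest were Bfsp1 (6747), a lens filament gene, Lmnb2 (4416) and Lmna (1973), which encode lamins of the nuclear envelope. Vim, whose product vimentin is the filament of mesenchymal cells, had 1752, above every keratin gene but Krt10. Nefh, Gfap, Prph and Ina were unmarked. Genes of desmosomal plaques and of proteins that tie keratin filaments to junctions were marked in 5 of 9 (55.6%), led by Jup (2097), Dst (1975) and Dsp (525). Junction genes such as Jup and Dst are also used outside epithelia.

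Because keratins are made by surface epithelium, 14 markers of that tissue were read alongside. Of these, 8 of 14 were marked (57.1%), near the 65.0% of all protein-coding genes. Their best scores ran from 92 (Esrp2) to 1367 (Grhl2), the next being Elf3 (1334) and Klf5 (610). All lay below the median of 2494 over all marked genes. The Elf3 interval of 1334 lay near an end but outside the gene, and the highest score inside Elf3 was 273. Epcam had 439. Cdh1, Cldn6, Ehf, Esrp1, Grhl3 and Trp63, which encode E-cadherin, a tight junction protein and regulators of epithelial fate, had no interval at an end. Cdh1 and Trp63 had intervals inside the gene, with highest scores of 456 and 337, as did Grhl3 and Esrp1, with 126 and 81. Cldn6 and Ehf had none there. The part of epithelial cells in the keratin intervals was not tested.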

How the data were processed

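The authors' deposited list holds 125826 intervals, each with its position and a score, 125580 of them on chromosomes 1 to 19, X and Y. Per the text deposited with it, reads of 4 of the series' 28 libraries were merged and intervals called with MACS2 2.1.3.3 (no model, shift 0, extension size 141 bp, duplicates kept, q-value limit 0.001). The options name no control. Per the submitters' processing notes, tools include bcl2fastq 2.17 and Bowtie 1.1.1, on GRCm38. Depth is unknown, scores grow with depth, and a gene without an interval is one where none was detectable at this depth. The other 24 libraries were not analysed here.

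Gene positions came from a RefSeq table of GRCm38.p6 without strand. Starts and strands came from the promoter table. Marked genes are those with 1 bp or more of an interval less than or equal to 1 kb from an annotated end. Members and lists were chosen with earlier results of these data known. The genes named are the simple-epithelium keratins, members with an interval in or within 1 kb of the gene, those farthest from one, neighbours and the 3 highest of each comparison list; others were named after their values were seen. One gene of the surface epithelium list is not reported here. The analysis used Python 3.11.15 and pandas 2.3.3, and the overlap code was tested on simulated data.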

Additional observations from a re-analysis of the deposited data

How the results depend on the processing

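No paired analysis was possible because the single list was called on merged libraries and gives no value per library, and for the same reason no library could be left out. The 14 marked keratin genes became 5 of 49 when only intervals over the gene-end base were counted, a setting that also took all protein-coding genes from 65.0% to 32.6%, and 6 of 35 at listed 5′ starts. The 4 marked simple-epithelium genes became 2 of 5 with a window of 500 bp (61.5% of all genes). They became 2 of 5 as well with at least 50% of the interval inside the window (63.2% of all genes). With an interval over the gene-end base they were also 2 of 5, above the 32.6% of all genes. The 10 other keratins became 3 of 44 over the gene-end base and 3 of 31 at listed starts. The 18 genes with an interval inside became 11 in the higher-scored 50% of intervals. Intervals in the chromosome 11 cluster went from 20 to 11 with scores of at least 100 (55%, against 59.2% over the chromosome). They went to 9 in the higher-scored 50%. The run with the most members and gaps under 250 kb (13 members, Krt34 to Krt42) held 7. That run spans 233 kb of the 1037.2 kb of the cluster, so its count is of a smaller stretch. Intervals in the chromosome 15 cluster went from 32 to 18 with scores of at least 100 (56.2%, against 54% over the chromosome). They went to 15 in the higher-scored 50%. At scores of at least 100, each cluster thus kept a share near that of its chromosome. The higher-scored 50% leaves out about 50% of all intervals by definition. The remaining alternatives kept each count within 1.5 times. No result rests on a replicate, and depth limits every absence.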

Other observations

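The stretch of chromosome 11 between Krt40 and Krt34 is filled with genes of keratin-associated proteins, which embed the keratin filaments of hair. Of 23 protein-coding genes in the cluster whose symbol starts with Krtap, 0 had an interval in or within 1 kb of the gene. The share over all protein-coding genes was 74.4%. The unique placement of reads was not checked at these Krtap genes. The 302 kb without an interval held 9 of them among 21 protein-coding genes. Keratin genes with a letter in the symbol, left out by the choice of members, also had none. The nearest intervals lay 81.0 kb from Krt6b and 78.2 kb from Krt6a, keratins of stressed and periderm epithelium, and 66.8 kb from Krt33a and 79.3 kb from Krt33b, keratins of hair. The annotated pseudogene Krt74 had none within 8.96 kb.

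Some of the stronger intervals of the clusters lay in no keratin gene. On chromosome 11 one with a score of 456 (99573987 to 99574280) overlapped no annotated gene, and another with 293 (100243214 to 100243436) overlapped a pseudogene 2.65 kb from Krt16. On chromosome 15 one with a score of 370 (101772463 to 101772819) stood alone after the 177 kb without an interval, 3.35 kb from Krt72.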
